A study of Mus musculus with 8 samples.

Results

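The genes described here encode the pre-B cell receptor and the proteins that sit closest to it in signalling: Vpreb1, Vpreb3, Igll1, Cd79a, Cd79b, Ighm, Blnk, Blk, Cd72 and Bank1. They were taken by gene symbol, at every probe set whose annotation named them, and they are 10 of the 18193 genes with a probe set of their own on the array. They were measured in LY6D-negative common lymphoid progenitors sorted as LIN-FLT3+CD127+LY6D- from the bone marrow of C57BL/6 mice aged 10 to 13 weeks. The genotypes were E2A-KO (4 arrays), HEB-KO (2 arrays) and wild type, WT (2 arrays). E2A is the product of Tcf3 and HEB that of Tcf12, both E proteins. The labels give no allele for either knockout. Cells of several marrows were pooled in each sort and at least 2 sorts were made per genotype, and whether each of the 4 E2A-KO arrays had its own sort is not given. The p-values below therefore rest on how arrays of pooled cells differed, and not on how mice differed.

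The pre-B cell receptor is the checkpoint of early B-cell development. A newly rearranged immunoglobulin mu heavy chain (Ighm) reaches the surface with a surrogate light chain made of VpreB and lambda5 (Vpreb1 and Igll1) and signals through the Ig-alpha and Ig-beta chains (Cd79a and Cd79b) to the kinases Syk and Blk and the adaptor Blnk, with Cd72 and Bank1 modulating the signal. E proteins bind DNA as dimers at E-boxes (CANNTG, where N is any base), and E2A acts with the transcription factor Ebf1 in switching on the surrogate light chain and the Ig chains. The comparisons bear on how these genes were expressed without E2A or HEB before the progenitors gain LY6D.

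Promoters of the genes are shown because E-boxes are the sites that E proteins bind. The RefSeq promoter table (GRCm38.p6, 250 bases before to 50 after the start of each gene) held 7 of the 10 genes, namely Vpreb1, Vpreb3, Igll1, Cd79a, Blnk, Cd72 and Bank1. The 3 genes with the largest differences among those whose E2A-KO arrays all lay below the WT arrays (Blnk, Bank1 and Cd72) are printed, with Vpreb1, the gene that differed most between arrays of 1 genotype. Each is written 5′ to 3′ on the strand of the gene, all on the minus strand, at chr19:40994172-40994471 (Blnk), chr4:43454577-43454876 (Cd72), chr3:136326017-136326316 (Bank1) and chr16:16869206-16869505 (Vpreb1), and capitals mark E-boxes.
Blnk: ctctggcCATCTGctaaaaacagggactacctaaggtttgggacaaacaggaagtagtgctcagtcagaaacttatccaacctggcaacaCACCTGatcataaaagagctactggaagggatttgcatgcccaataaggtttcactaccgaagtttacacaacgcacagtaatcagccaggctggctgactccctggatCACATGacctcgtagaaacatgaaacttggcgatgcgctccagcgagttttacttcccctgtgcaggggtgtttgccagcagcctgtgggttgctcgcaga
Cd72: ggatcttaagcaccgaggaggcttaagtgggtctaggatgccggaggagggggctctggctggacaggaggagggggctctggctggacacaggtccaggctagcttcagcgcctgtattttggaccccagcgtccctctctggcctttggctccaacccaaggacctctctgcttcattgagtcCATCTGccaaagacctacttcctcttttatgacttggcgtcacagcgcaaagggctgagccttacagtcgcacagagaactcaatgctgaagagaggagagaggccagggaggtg
Bank1: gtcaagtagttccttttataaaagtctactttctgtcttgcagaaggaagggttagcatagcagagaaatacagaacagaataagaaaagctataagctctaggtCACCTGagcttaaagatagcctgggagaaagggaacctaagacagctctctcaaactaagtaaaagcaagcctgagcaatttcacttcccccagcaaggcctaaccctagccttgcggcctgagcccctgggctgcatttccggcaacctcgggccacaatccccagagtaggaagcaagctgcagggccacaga
Vpreb1: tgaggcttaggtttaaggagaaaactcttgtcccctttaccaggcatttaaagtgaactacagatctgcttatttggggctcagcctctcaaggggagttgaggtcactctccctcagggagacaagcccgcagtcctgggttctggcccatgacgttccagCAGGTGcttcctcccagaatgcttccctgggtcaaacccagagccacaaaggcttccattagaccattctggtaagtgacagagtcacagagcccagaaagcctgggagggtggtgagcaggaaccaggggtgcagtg
The motif CANNTG, which reads the same on both strands, was in 7 of the 7 promoters and in 72.3% of all 32851 promoters of the table. CAGGTG or its reverse complement CACCTG, which are among the CANNTG matches, were in 5 of the 7 (Vpreb1, Igll1, Cd79a, Blnk and Bank1) and in 20.2% of all. Blnk had 3 E-boxes, at positions -243, -160 and -51 from its start, of which the one at -160 was CACCTG. Cd72 had 1, Bank1 had 1 and Vpreb1 had 1 in the window. CAGCTG was in 1 of the 7 (Igll1) and in 16.3% of all, and CCCNNGGG, the core bound by Ebf1, was in 2 of the 7 (Igll1 and Bank1) and in 13.7% of all. These matches describe the letters in these windows, and binding was not measured.

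Values are log2 of the deposited RMA intensity, and the median probe set of an array lay between 3.82 and 3.95 on this scale. Tcf3 read 4.28, 3.71, 4.05 and 3.90 on the E2A-KO arrays, against 7.76 and 7.98 on the WT arrays, and Tcf12 read 7.10 and 6.49 on the HEB-KO arrays, against 8.85 and 8.76 on the WT arrays. Of the transcripts of the sort markers, Flt3 read 10.12 to 11.05 on the 8 arrays, and Il7r, which encodes CD127, fell without E2A. Il7r read 8.56, 7.89, 8.73 and 9.04 on the E2A-KO arrays, 10.88 and 10.498 on the HEB-KO arrays and 10.51 and 10.91 on the WT arrays. All E2A-KO arrays lay below those of both other genotypes, and the HEB-KO and WT arrays overlapped. The Il7r difference from WT was -2.15 in E2A-KO cells (4.45-fold lower, SE 0.32, limma adjusted p = 0.0330), and it stayed negative in all 20 alternative settings run, of which 9 took the limma adjusted p above 0.05 (0.0137 to 0.504 over the 20). Among these were those without either WT array, either HEB-KO array or E2A-KO array 1. Kit, a receptor of early progenitors, read 5.38, 4.05, 3.98 and 4.81 on the E2A-KO arrays, 6.5 and 5.77 on the HEB-KO arrays and 6.61 and 6.66 on the WT arrays. The E2A-KO arrays lay below the others, and the Kit difference from WT of -2.08 did not pass (SE 0.41, limma adjusted p = 0.0823). Ly6d was not uniformly low in these cells, which were sorted as lacking its protein: it read 6.75, 4.48, 4.26 and 6.88 on the E2A-KO arrays, 7.52 and 3.63 on the HEB-KO arrays and 3.53 and 7.83 on the WT arrays. RNA for 18 hybridization control probe sets is added to the hybridization mix. Their mean was 11.52, 12.03, 12.62 and 12.44 on the E2A-KO arrays, 10.32 and 11.60 on the HEB-KO arrays and 11.40 and 10.29 on the WT arrays. It was thus lowest on HEB-KO array 1 and WT array 2 and highest on E2A-KO arrays 2, 3 and 4. This level and the E2A-KO genotype cannot be fully told apart.

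Genes were called at a limma adjusted p under 0.05 over all 11957 genes tested, each at its brightest probe set, and all 10 genes were tested. Without E2A, 1 of the 10 genes passed, Cd72, which fell, where 0.443% of all genes tested passed in either direction. At an unadjusted p under 0.05 it was 4 of 10 (Cd72, Blnk, Bank1 and Ighm), where 13.4% of all genes passed, and these were also the 4 whose E2A-KO arrays all lay below both WT arrays, as did those of 15.4% of all genes. The difference was negative for 9 of 10, against 54.9% of all genes, and the median of the 10 differences was -1.18, against -0.053 over all genes. Against WT, HEB-KO cells had no call among the 10 at limma adjusted p under 0.05 (0% of all genes tested), no unadjusted p under 0.05 (2.61% of all) and a median difference from WT of -0.40, against 0.086 over all genes. The targeted gene Tcf12 was itself not called there, at -2.01 (4.03-fold lower, SE 0.26, limma adjusted p = 0.328). The lack of calls in HEB-KO cells therefore does not show a lack of differences. Fewer cells expressing a gene and less RNA per cell cannot be told apart in these bulk samples.

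**Figure D1:**
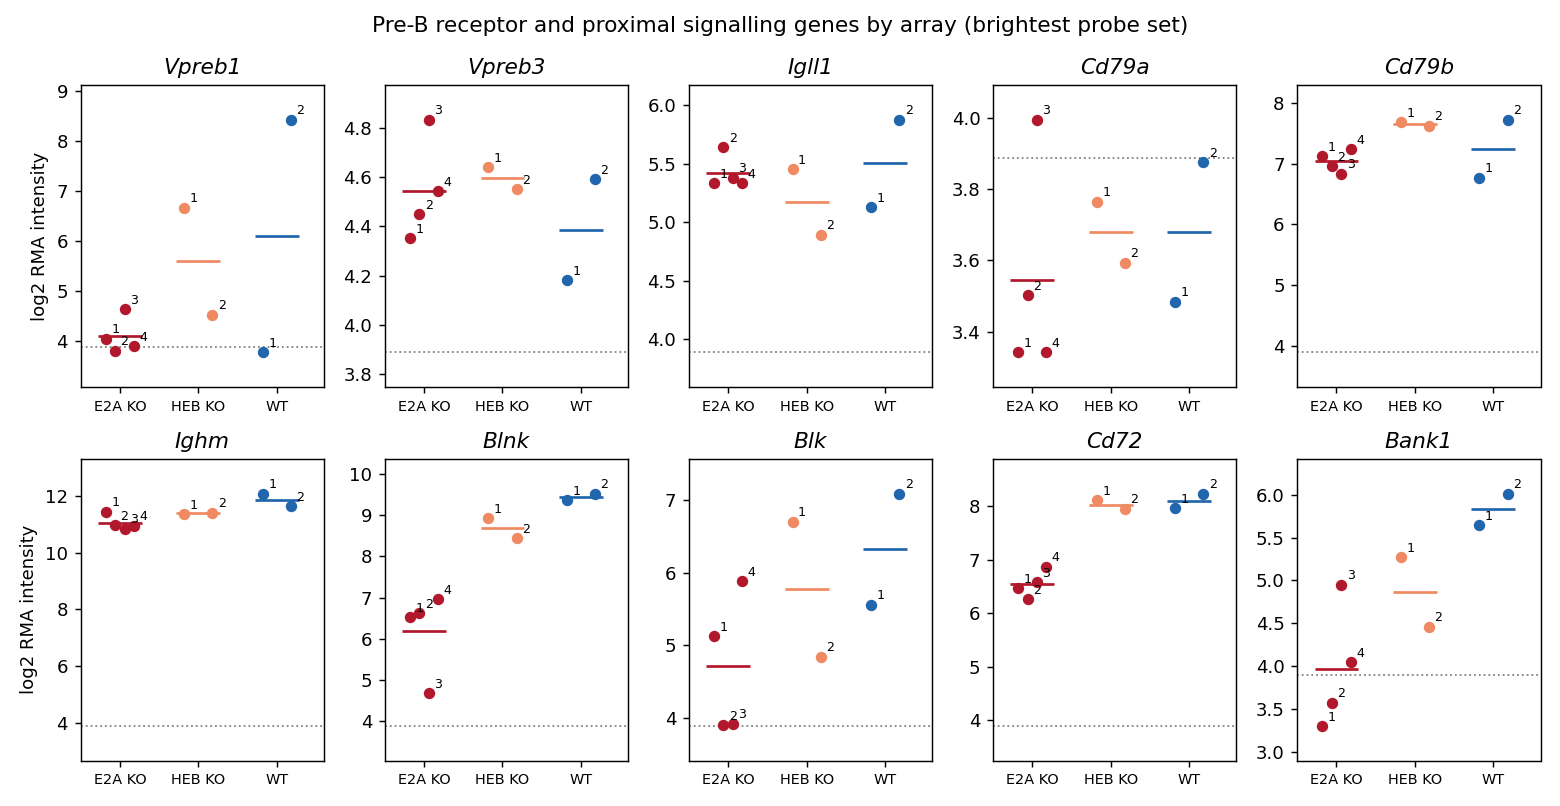
Log2 RMA intensity (y axis) of each of the 10 genes at its brightest probe set, with 1 point per array numbered by replicate, grouped as E2A KO, HEB KO and WT (x axis). Short lines are group means, and the dotted line is the median probe set averaged over the 8 arrays. All E2A KO points of Blnk, Cd72, Bank1 and Ighm lie below both WT points, whereas Vpreb1 and Blk spread widely within WT and within HEB KO.

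The surrogate light chain genes were low or variable. Vpreb1, which encodes the V-like part of the surrogate light chain, read 4.06, 3.82, 4.64 and 3.90 on the E2A-KO arrays, 6.67 and 4.53 on the HEB-KO arrays and 3.78 and 8.42 on the WT arrays. WT array 2 stood alone at the top and WT array 1 lay below all others, so E2A-KO and WT overlapped. As linear intensity the WT arrays read 13.8 and 342, a 24.8-fold gap, and only 0.0167% of all genes tested had a gap between the WT arrays at least as large. HEB-KO array 1 was 4.39-fold above HEB-KO array 2. The E2A-KO minus WT difference was -2.0 (SE 1.08, limma adjusted p = 0.446), and without WT array 2 it was 0.32. The HEB-KO minus WT difference was -0.50 (SE 1.24, limma adjusted p = 1), and 1.81 without WT array 2. The E2A-KO minus HEB-KO difference was -1.49 (SE 1.08, limma adjusted p = 0.501), and -0.43 without HEB-KO array 1. A further probe set names Vpreb1 together with Vpreb2, and it read 3.54 to 4.08 on the 8 arrays, above the array median on 2. It read 3.68 and 4.08 on the WT arrays and 4.04 on E2A-KO array 3, so the wide WT gap was not seen there.

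Vpreb3, whose protein binds immunoglobulin chains inside the cell, was close to the array median in every genotype. It read 4.35, 4.45, 4.83 and 4.54 on the E2A-KO arrays, 4.64 and 4.55 on the HEB-KO arrays and 4.18 and 4.59 on the WT arrays. The groups overlapped, and the E2A-KO minus WT difference was 0.16 (95% interval -0.35 to 0.67). Igll1 encodes lambda5, the constant-like part of the surrogate light chain, and is a neighbour of Vpreb1 on chromosome 16. Its brighter probe set read 5.33, 5.64, 5.38 and 5.33 on the E2A-KO arrays, 5.45 and 4.89 on the HEB-KO arrays and 5.13 and 5.88 on the WT arrays. Here too WT array 2 was the highest, and the groups overlapped. For Igll1 the E2A-KO minus WT difference was -0.08 (95% interval -0.70 to 0.54), and 0.29 without WT array 2. Its other probe set stayed below the array median on all 8 arrays (3.03 to 3.52).

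The signal chains differed from each other in level relative to the array median. Cd79a, which encodes Ig-alpha, read 3.34, 3.5, 4.0 and 3.34 on the E2A-KO arrays, 3.77 and 3.59 on the HEB-KO arrays and 3.48 and 3.88 on the WT arrays. It lay above the array median on 2 of 8 arrays (E2A-KO array 3 and WT array 2), near the floor in every genotype, and its E2A-KO minus WT difference was -0.14 (95% interval -0.71 to 0.44). Cd79b, which encodes Ig-beta, was above the array median on all 8 arrays. It read 7.13, 6.97, 6.84 and 7.25 on the E2A-KO arrays, 7.69 and 7.63 on the HEB-KO arrays and 6.77 and 7.73 on the WT arrays. All E2A-KO arrays lay below both HEB-KO arrays, and the WT arrays fell on either side. The E2A-KO minus HEB-KO difference of Cd79b was -0.62 (SE 0.28, limma adjusted p = 0.320), and the E2A-KO minus WT difference was -0.21 (95% interval -0.85 to 0.43) and 0.27 without WT array 2.

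Ighm, the mu heavy chain, can be transcribed before its V region is assembled, and a probe set on the constant part reads such transcripts as well. Its brightest probe set, 1427351_s_at, read 11.44, 10.95, 10.84 and 10.95 on the E2A-KO arrays, 11.35 and 11.41 on the HEB-KO arrays and 12.08 and 11.63 on the WT arrays. The E2A-KO and the HEB-KO arrays all lay below both WT arrays. The E2A-KO minus WT difference was -0.81 (SE 0.24, limma adjusted p = 0.215), and the HEB-KO minus WT difference was -0.48 (SE 0.28, limma adjusted p = 1). The next brightest, 1427329_a_at, gave another order: it read 10.31, 9.65, 9.75 and 10.20 on the E2A-KO arrays, 11.52 and 11.08 on the HEB-KO arrays and 11.004 and 11.39 on the WT arrays. There the E2A-KO arrays lay below those of both other genotypes, and the HEB-KO and WT arrays overlapped. In the fit to all probe sets its difference from WT was -1.22 in E2A-KO cells (SE 0.25, limma adjusted p = 0.182) and 0.11 in HEB-KO cells (SE 0.29, limma adjusted p = 1).

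The other 9 Ighm probe sets did not follow these. Of them, 1427870_x_at read 6.07 to 6.54 on the 8 arrays, and each of the other 8 was above the array median on 3 arrays at most. Their E2A-KO minus WT differences ran from -0.04 to 0.49. The E2A-KO arrays of 5 of the 9 lay above both WT arrays, as did those of 13.4% of all probe sets. All of these 5 but 1427870_x_at were among the 8 low ones. The lower Ighm signal without E2A was seen at the 2 brightest probe sets. The mean over all 11 Ighm probe sets differed by 0.013 between E2A-KO and WT cells (E2A-KO minus WT). Most of the 11 lay near or below the array median, so that mean cannot decide whether Ighm fell. A further 4 probe sets name Ighm together with other immunoglobulin genes and stayed below the array median on all arrays. The labels and annotation used here do not say which part of the gene a probe set reads.

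**Figure D2:**
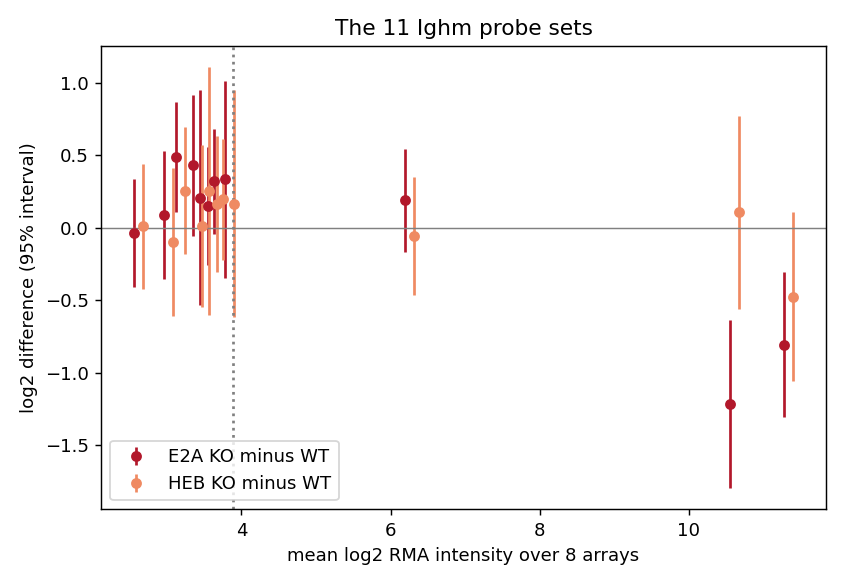
Log2 difference from WT (y axis, points with 95% intervals) of the 11 Ighm probe sets against their mean log2 RMA intensity over the 8 arrays (x axis), for E2A KO and HEB KO cells. The dotted line is the median probe set, and the 2 brightest probe sets on the right are the ones with an E2A KO difference of -1.22 and -0.81.

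The adaptor Blnk links Syk to phospholipase C and Btk. It read 6.53, 6.62, 4.69 and 6.97 on the E2A-KO arrays, 8.93 and 8.45 on the HEB-KO arrays and 9.36 and 9.52 on the WT arrays. The 3 genotypes were fully apart, with E2A-KO lowest, and E2A-KO array 3 was the lowest array. The E2A-KO minus WT difference was -3.24 (9.45-fold lower, SE 0.56, 95% interval -4.50 to -1.98), and it missed the threshold at limma adjusted p = 0.0521. Its adjusted p lay between 0.00932 and 0.575 over 20 alternatives and was under 0.05 in 9 of them, among them that without E2A-KO array 3 (-2.74, limma adjusted p = 0.00932), and was above 0.05 without any 1 of the other arrays. The E2A-KO minus HEB-KO difference of Blnk was -2.49 (SE 0.56, limma adjusted p = 0.124). The HEB-KO minus WT difference was -0.75 (SE 0.64, limma adjusted p = 1).

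Blk, a Src-family kinase of the B lineage, also differed widely between arrays of 1 genotype. It read 5.13, 3.90, 3.92 and 5.88 on the E2A-KO arrays, 6.70 and 4.84 on the HEB-KO arrays and 5.56 and 7.09 on the WT arrays. WT array 2 and HEB-KO array 1 were the highest, and all genotypes overlapped. The gap between the 2 arrays was 2.88-fold in WT and 3.62-fold in HEB-KO, and 1.12% and 0.309% of all genes tested had gaps at least as large. For Blk the E2A-KO minus WT difference was -1.61 (SE 0.72, limma adjusted p = 0.377), and -0.85 without WT array 2. It was -0.55 in HEB-KO minus WT (SE 0.83, limma adjusted p = 1), and 0.21 without WT array 2. In E2A-KO minus HEB-KO it was -1.06 (SE 0.72, limma adjusted p = 0.473), and -0.13 without HEB-KO array 1.

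Cd72, an inhibitory coreceptor of B cells that recruits the phosphatase SHP-1, fell without E2A. It read 6.46, 6.26, 6.57 and 6.87 on the E2A-KO arrays, 8.11 and 7.95 on the HEB-KO arrays and 7.96 and 8.23 on the WT arrays. All E2A-KO arrays lay below the arrays of both other genotypes, and the HEB-KO and WT arrays overlapped. Against WT the E2A-KO difference of Cd72 was -1.56 (2.94-fold lower, SE 0.23, limma adjusted p = 0.0319). The difference lay between -1.41 and -1.74 in all 20 alternatives, and the call was lost in 10 of them (limma adjusted p from 0.0151 to 0.504 over the 20), including those without either WT array, without either HEB-KO array and without E2A-KO array 1 or 2. Without WT array 2 the difference was -1.42 (limma adjusted p = 0.316), and over all probe sets its adjusted p was 0.0552. The E2A-KO minus HEB-KO difference of -1.49 (SE 0.23) did not pass (limma adjusted p = 0.0708), and the HEB-KO minus WT difference was -0.07 (95% interval -0.68 to 0.53).

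Bank1, a scaffold protein of B-cell receptor signalling, had its lowest mean without E2A. It read 3.30, 3.57, 4.95 and 4.05 on the E2A-KO arrays, 5.27 and 4.46 on the HEB-KO arrays and 5.65 and 6.02 on the WT arrays. The WT arrays lay above those of both knockouts, which overlapped each other, and E2A-KO arrays 1 and 2 were below the array median. The E2A-KO minus WT difference was -1.86 (SE 0.45, limma adjusted p = 0.124). It was -2.19 without E2A-KO array 3 and passed there (limma adjusted p = 0.0302). The HEB-KO minus WT difference of Bank1 was -0.97 (SE 0.52, limma adjusted p = 1), and it ran from -1.37 without HEB-KO array 1 to -0.56 without HEB-KO array 2.

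**Figure D3:**
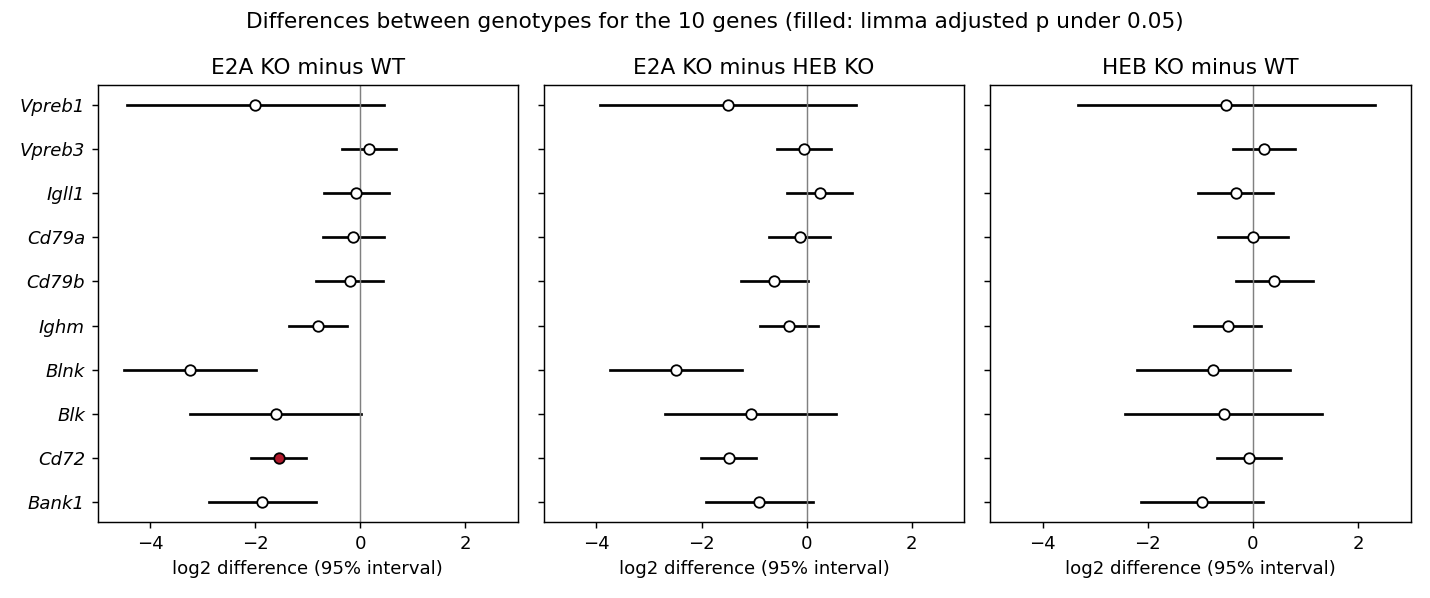
Log2 differences (x axis, points with 95% intervals) of the 10 genes (rows) for E2A KO minus WT, E2A KO minus HEB KO and HEB KO minus WT, from 1 limma model of all 8 arrays. The filled point is Cd72 in E2A KO minus WT, the 1 difference with an adjusted p under 0.05, and the Vpreb1 and Blk intervals are the widest.

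E2A-KO cells were also set against HEB-KO cells, with the E2A-KO arrays shared with the comparison to WT. None of the 10 genes passed at limma adjusted p under 0.05, where 0.117% of all genes tested did. At an unadjusted p under 0.05 it was 2 of 10 (Cd72 and Blnk) against 16.5% of all genes, and 3 of 10 (Cd79b, Blnk and Cd72) had E2A-KO arrays wholly below the HEB-KO arrays, against 21.6% of all genes. The difference was negative for 9 of 10, against 62.9% of all genes, with a median of -0.76, against -0.16 over all genes.

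In HEB-KO minus WT, where no gene passed and 312 had an unadjusted p under 0.05, the arrays of 3 of 10 (Ighm, Blnk and Bank1) lay wholly below WT, against 11.4% of all genes. The difference was negative for 8 of 10, against 38.2% of all genes. The HEB-KO and E2A-KO comparisons share the WT arrays, so their directions are not independent.

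Across the 21 probe sets that name 1 of the 10 genes alone, none passed for E2A-KO minus WT in the limma fit to all 45037 probe sets (0.0822% of all passed), and 6 had an unadjusted p under 0.05 (10.2% of all). The E2A-KO arrays lay wholly below WT for 5 of the 21 (8.63% of all probe sets) and wholly above for 5 (13.4%), and the 5 above were all Ighm probe sets. In HEB-KO minus WT none of the 21 passed (0% of all) and none had an unadjusted p under 0.05 (3.12% of all). In E2A-KO minus HEB-KO none passed (0.00222% of all) and 4 had an unadjusted p under 0.05 (11.5% of all).

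Vpreb1 and Blk were highest on the same 2 arrays as Ly6d, Ebf1 and Rag1. Ebf1, a factor that specifies the B lineage, read 2.40, 2.32, 3.06 and 2.49 on the E2A-KO arrays, 5.79 and 3.46 on the HEB-KO arrays and 4.36 and 6.90 on the WT arrays. Rag1, a subunit of the V(D)J recombinase, read 4.46, 3.41, 4.13 and 3.63 on the E2A-KO arrays, 8.49 and 5.81 on the HEB-KO arrays and 5.97 and 9.57 on the WT arrays. Within WT and within HEB-KO, the array with more Ly6d thus also had more Ebf1, Rag1, Vpreb1 and Blk, and it was the array with the low hybridization control. The mean of the 10 genes was higher on it too. That mean was 7.30 on WT array 2 and 6.40 on WT array 1, and 6.86 on HEB-KO array 1 and 6.23 on HEB-KO array 2. Of the 10 genes, only Ighm at its brightest probe set went the other way in both genotypes, and many of the gaps were small. Other pro-B markers did not all share the order of Ly6d. Rag2 did, with 7.60 and 6.63 on HEB-KO arrays 1 and 2 and 6.65 and 7.41 on WT arrays 1 and 2. Pax5 shared it within WT (3.54 on WT array 1 and 3.77 on WT array 2) but read 3.66 on HEB-KO array 1 and 3.91 on HEB-KO array 2. Dntt, the terminal transferase of V(D)J joining, read 13.24 and 13.47 on the HEB-KO arrays and 13.51 and 13.52 on the WT arrays. Among the E2A-KO arrays, 1 and 4 had the most Ly6d and the most Blk, whereas Ebf1 and Vpreb1 were highest on array 3 and Rag1 on array 1. On the E2A-KO arrays Ebf1 lay below the array median throughout, and Vpreb1 and Rag1 lay around it, so their order there says little. Cd72 differed 1.20-fold between the WT arrays and 1.12-fold between the HEB-KO arrays, and Blnk 1.12-fold and 1.40-fold. The part that progenitors closer to the LY6D-positive stage had in these values was not tested.

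**Figure D4:**
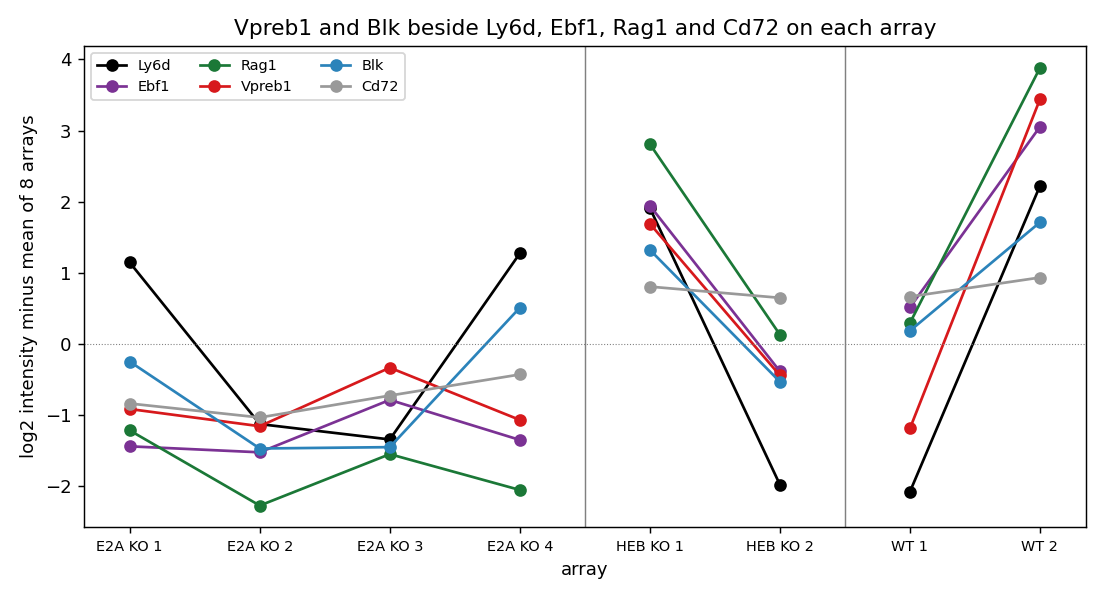
Log2 intensity of Vpreb1, Blk and Cd72 beside Ly6d, Ebf1 and Rag1, each minus its own mean over the 8 arrays (y axis), on every array (x axis), with lines joining arrays of 1 genotype for legibility. Vpreb1, Blk, Ly6d, Ebf1 and Rag1 are high together on HEB KO 1 and WT 2, and Cd72 differs little between arrays of 1 genotype.

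Markers of later and other cells were looked at beside these genes. Of 6 mature B-cell markers measured, 4 (Ms4a1, Cr2, Fcer2a and Cxcr5) were below the array median on all 8 arrays, and the summed linear intensity of the 6 was 115 to 144 on the E2A-KO arrays, 128 and 136 on the HEB-KO arrays and 167 and 197 on the WT arrays. Tnfrsf13c, the receptor of the survival factor BAFF, was likewise highest on the WT arrays (5.11 to 6.36 on the E2A-KO arrays, 6.40 and 6.26 on the HEB-KO arrays and 7.23 and 6.93 on the WT arrays). Cd22 was not, with 4.79, 5.21, 3.42 and 6.03 on the E2A-KO arrays, 4.27 and 4.28 on the HEB-KO arrays and 3.79 and 3.74 on the WT arrays. The summed intensity of 5 pro-B markers (Ebf1, Pax5, Rag1, Rag2 and Dntt) was 4682 to 8118 on the E2A-KO arrays, 10310 and 11561 on the HEB-KO arrays and 11900 and 12822 on the WT arrays, and all E2A-KO arrays lay below the others. Most of that sum was Dntt, which read 12.16 to 12.97 on the E2A-KO arrays, whereas Pax5 lay above both WT arrays there (3.81 to 4.12, against 3.54 and 3.77 on the WT arrays). The 4 genes linked to the sort (Flt3, Il7r, Ly6d and Kit) summed to 1388 to 2150 on the E2A-KO arrays, 2963 and 4271 on the HEB-KO arrays and 2985 and 3870 on the WT arrays, again with all E2A-KO arrays below the others. Taken singly, Il7r and Kit had all E2A-KO arrays below the others, whereas Flt3 and Ly6d overlapped between the genotypes. The sum of 8 neutrophil and monocyte markers was 2331 to 4621 on the E2A-KO arrays, 4110 and 5919 on the HEB-KO arrays and 2108 and 2876 on the WT arrays. Mpo, a granule enzyme also made by early myeloid progenitors, read 11.10 to 12.13 on the E2A-KO arrays, 11.66 and 11.59 on the HEB-KO arrays and 10.84 and 11.23 on the WT arrays. Lyz2 of the same list was lowest on the E2A-KO arrays (5.29 to 6.56), against 7.70 and 8.34 on the HEB-KO arrays and 7.53 and 7.36 on the WT arrays. S100a8, a gene of neutrophils, gave another order, with 3.69, 3.90, 8.63 and 3.11 on the E2A-KO arrays, 7.66 and 9.84 on the HEB-KO arrays and 3.35 and 6.87 on the WT arrays. Among the E2A-KO arrays, S100a8 and the granule gene Ngp (8.65, against 3.21 to 4.71 on the other E2A-KO arrays) thus stood apart on array 3, the array without which Blnk and Bank1 passed the test. The sum of 4 plasma cell markers was 1891 to 2614 on the E2A-KO arrays, 1493 and 1811 on the HEB-KO arrays and 1384 and 1924 on the WT arrays. Of these, the E2A-KO arrays were above the others in Sdc1 (10.14 to 10.80 on the E2A-KO arrays, 9.76 and 9.79 on the HEB-KO arrays and 9.27 and 9.42 on the WT arrays), but not in Xbp1 (9.10 to 9.66 on the E2A-KO arrays, 9.86 and 9.18 on the HEB-KO arrays and 9.55 and 10.24 on the WT arrays). Prdm1, the master regulator of plasma cells, was below the array median on all 8 arrays. The sum of 5 plasmacytoid dendritic markers was 2636 to 6249 on the E2A-KO arrays, 4834 and 6855 on the HEB-KO arrays and 4998 and 5891 on the WT arrays. Among them, Cox6a2 was lower on all E2A-KO arrays (6.55 to 7.43) than on the HEB-KO (9.15 and 8.90) and WT arrays (8.45 and 9.18). The other markers of this list overlapped between the genotypes, and Siglech was highest on E2A-KO arrays 1 and 4 (5.80 and 6.95). The 4 T-cell markers summed to 85.1 to 99.0 over all arrays, and 2 erythroid markers to 21.6 to 234 on the E2A-KO arrays, 28.02 and 39.21 on the HEB-KO arrays and 25.6 and 49.4 on the WT arrays. RMA values hold no zeros, so an unexpressed gene reads near the array floor. The part of cell composition in the differences was not tested.

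Of 39 further genes of the pre-B receptor pathway, 34 were measured and 32 tested, and none passed at limma adjusted p under 0.05 in any comparison. For E2A-KO minus WT, 6 of the 32 were lower at an unadjusted p under 0.05 and none higher, against 9.8% lower among all genes. The median of the 32 differences was -0.40, against -0.053 over all genes. Syk, the kinase that binds the Ig chains, had the smallest p: it read 8.65, 7.64, 7.34 and 8.49 on the E2A-KO arrays, 10.04 and 9.87 on the HEB-KO arrays and 9.21 and 9.98 on the WT arrays. Its difference from WT in E2A-KO cells was -1.57 (SE 0.40, limma adjusted p = 0.147). The next were Rasgrp3, a Ras activator (-0.77, SE 0.20), and Pik3r1, a regulatory subunit of PI3 kinase (-0.89, SE 0.23). The E2A-KO arrays of these 3 genes, picked for their small p, lay wholly below WT, as did those of 15.4% of all genes.

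In HEB-KO minus WT none of the 32 had an unadjusted p under 0.05, where 2.61% of all genes did. Their median of 0.11 was close to the 0.086 over all genes. The smallest p belonged to Pik3cd, a catalytic subunit of PI3 kinase (0.73, SE 0.33), the kinase Btk (0.52, SE 0.31) and the adaptor Pik3ap1 (-0.65, SE 0.44). When 1 array was left out they ran from 0.32 without WT array 1 to 1.15 without WT array 2 for Pik3cd, from 0.23 to 0.82 without the same arrays for Btk, and from -1.27 without HEB-KO array 1 to -0.018 without HEB-KO array 2 for Pik3ap1. In E2A-KO minus HEB-KO, 8 of the 32 were lower at an unadjusted p under 0.05, against 13.8% of all genes, and none higher. The median of the 32 was -0.44, against -0.16 over all genes. The 8 were led by Syk (-1.92, SE 0.40, limma adjusted p = 0.115), followed by Bcl10, an adaptor towards NF-kappaB (-1.02, SE 0.35), and Pik3r1 (-0.69, SE 0.23).

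**Figure D5:**
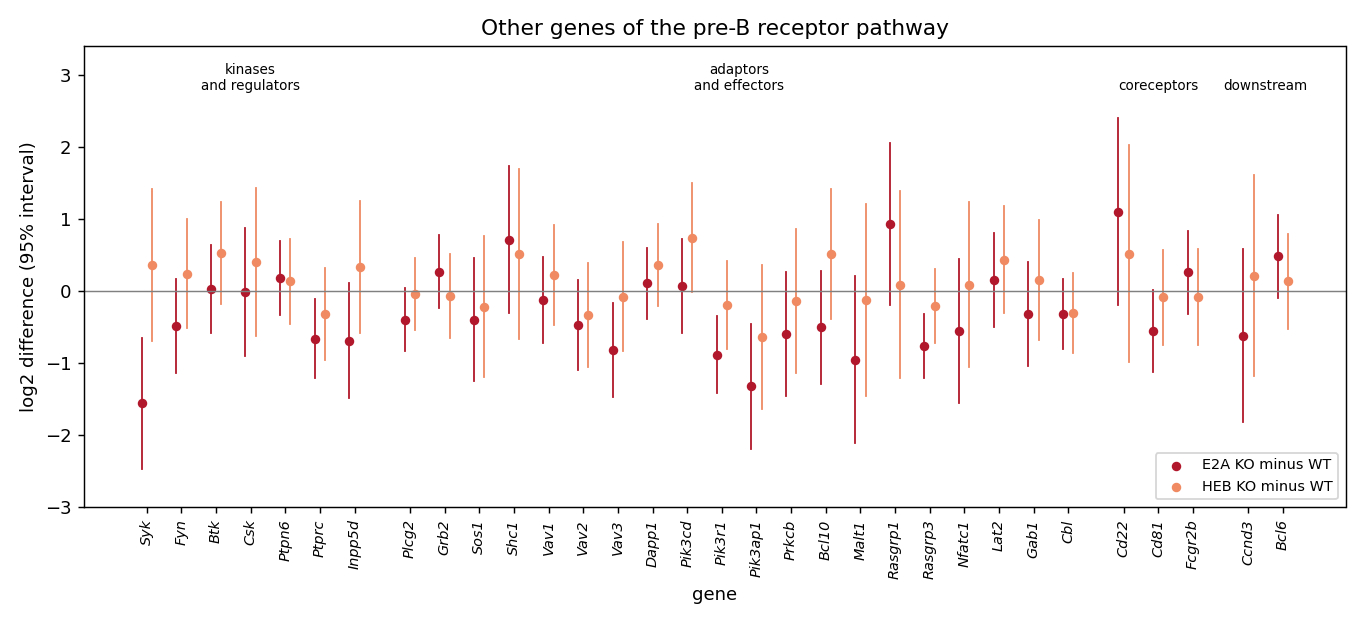
Log2 difference from WT (y axis, points with 95% intervals) of 32 tested genes of the pre-B receptor pathway other than the 10, grouped by role (x axis), for E2A KO and HEB KO cells. Syk has the lowest E2A KO value at -1.57, and no gene had an adjusted p under 0.05.

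Of 12 transcription factors known to act on these genes, 11 were tested and 1 was called in E2A-KO minus WT, Foxo1, where 0.443% of all genes were called. None of the 11 was called in E2A-KO minus HEB-KO (0.117% of all genes) or in HEB-KO minus WT (0%). Foxo1 read 6.60, 5.53, 5.60 and 6.34 on the E2A-KO arrays, 7.97 and 7.68 on the HEB-KO arrays and 7.93 and 8.49 on the WT arrays. The factor, which acts with E2A and Ebf1 in B-lineage specification, had a log2 difference of -2.19 in E2A-KO cells (SE 0.35, limma adjusted p = 0.0416). The call was lost in 12 of 20 alternatives (limma adjusted p from 0.0216 to 0.540 over the 20), among them those without either WT array, either HEB-KO array and E2A-KO array 2 or 4, and the difference was -0.92 with the mean of all probe sets. Its E2A-KO minus HEB-KO difference was -1.80 (limma adjusted p = 0.0910). The Ebf1 difference from WT in E2A-KO cells was -3.06 (SE 0.75, limma adjusted p = 0.131), and -1.79 without WT array 2. Ebf1 lay below the array median on all E2A-KO arrays, so its size rests on values near the floor. Pax5, the factor that commits cells to the B lineage, lay near the array median on all 8 arrays (3.54 to 4.12).

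The genes whose pattern over the 8 arrays was most like that of 3 of the 10 were found by Pearson correlation over 11947 other genes, as a description. Blnk was closest to Cobll1 (r = 0.991), Arhgap25 (0.986), Clcf1 (0.981), Il16 (0.977) and Rasal3 (0.976). Igll1 was closest to Pcsk7 (0.946), Hes1 (0.935), Tgfbr3 (0.917), Marf1 (0.892) and Cmtm4 (0.877). Cd79a was closest to Emsy (0.985), Erbin (0.956), Skap2 (0.955), Slc25a14 (0.947) and Fam219a (0.944). The 8 points share genotype and array, and the Cd79a values lay near the floor.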

How the data were processed

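RNA of cells sorted into lysis buffer was amplified with a second round of in vitro transcription and hybridized to 8 Affymetrix arrays, per the labels' protocols. The authors deposited 1 intensity per probe set, made with RMA per the submitters' processing notes. RMA corrects background, normalizes between arrays and summarises probes. RMA's version and chip definition were not given in the sources used here. Deposited values were linear, and they were put on the log2 scale without further normalization. RMA compresses differences near the floor. The number of arrays limits precision.

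Arrays were grouped by title and genotype. Of 45101 probe sets, 64 were controls, 34945 named 1 gene, 932 several and 9160 none. Entrez IDs of 34741 of the 34945 matched RefSeq and changed no symbol. Each gene was its brightest probe set, tested if above the array median on at least 2 arrays (11957 of 18193 genes). The 8 arrays entered 1 limma 3.58.1 model (lmFit, eBayes, R 4.3.3) that estimates each genotype's mean, with 5 residual degrees of freedom. Tests were two-sided, and genes under 0.05 after Benjamini-Hochberg adjustment were called. The model was also fitted to all 45037 probe sets that are not controls. The script was tested on simulated data.

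The 10 genes and the lists were chosen with earlier results of these data known. Named are the 10 genes, the targeted genes, called regulators with Ebf1 and Pax5, the 3 pathway genes with the smallest p per comparison, and Ly6d; other genes named came from the marker lists, and likeness was sought for Igll1, Cd79a and Blnk, with the 5 closest genes each. Plasma cell, T-cell, plasmacytoid dendritic and erythroid markers were summed as well. Alternatives were no filter or a 75th percentile filter, cyclic loess, median centring, log2(value + 16), array weights, a robust eBayes fit with trend, the mean of probe sets, only the 2 genotypes, a replicate block, the hybridization control level as covariate, WT array 2 with HEB-KO array 1 left out, and each array left out; a crossed replicate block was added after seeing the data.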

Additional observations from a re-analysis of the deposited data

Results flagged for a closer look

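Among the 21 probe sets of the 10 genes, 3 had 1 of the 4 E2A-KO arrays far from the others, by the gap to the nearest array divided by the range of the 4 (above Dixon's 95% critical value), where chance gives about 1 in 20. The share of all probe sets above that critical value was not computed, so an excess among the 21 was not shown. The ratio was 0.841 for Igll1 at 1420176_x_at, where E2A-KO array 2 read 5.64 and the others 5.33 to 5.38. It was 0.958 for Ighm at 1425385_a_at, where E2A-KO array 4 read 3.92 and the others 3.54 to 3.55. It was 0.834 for Ighm at 1451949_at, where E2A-KO array 3 read 4.28 and the others 3.19 to 3.37. Both Ighm probe sets lie near the array median.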

How the results depend on the processing

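The count of the 10 genes called in E2A-KO minus WT, 1 as reported, was 2 under the 75th percentile filter, cyclic loess, centring on the median, log2(value + 16), the mean of all probe sets and eBayes with trend and robust, and 3 with array weights. It was 0 with only the 2 genotypes compared, with the hybridization control level as covariate and without WT array 2 and HEB-KO array 1 together, and 0 to 3 when 1 array was left out. It was 0 without either WT array, either HEB-KO array, E2A-KO array 1 or E2A-KO array 2, and 3 without E2A-KO array 3. Of their probe sets, 0 were called as reported, 1 under the 75th percentile filter, 2 with array weights and 0 to 1 when 1 array was left out. In E2A-KO minus HEB-KO the count of genes, 0 as reported, was 1 under centring, log2(value + 16) and the mean of all probe sets, 2 with array weights and 0 to 1 when 1 array was left out. In HEB-KO minus WT it was 0 in all 21 alternatives. The 53 genes called in all for E2A-KO minus WT became 0 to 120 over the alternatives, and 1 with the hybridization control covariate. The hybridization control level was highest on E2A-KO arrays 2, 3 and 4, so this covariate and the E2A-KO genotype cannot be fully told apart.

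Differences that changed sign had not passed the test. With the hybridization control covariate, E2A-KO minus WT was 0.23 for Vpreb1, 0.40 for Igll1 and 0.19 for Cd79b, E2A-KO minus HEB-KO was 0.54 for Vpreb1 and 0.17 for Blk, and HEB-KO minus WT was 0.0011 for Cd79a. Without WT array 2 and HEB-KO array 1, E2A-KO minus WT was 0.32 for Vpreb1, 0.29 for Igll1, 0.061 for Cd79a and 0.27 for Cd79b, and HEB-KO minus WT was 0.75 for Vpreb1 and 0.11 for Cd79a. With the mean of all probe sets, E2A-KO minus WT was 0.025 for Igll1 and 0.013 for Ighm, and HEB-KO minus WT was 0.048 for Ighm. Those means include probe sets near the array floor, for Ighm most of them. HEB-KO minus WT of Cd79a was 0.0033 with cyclic loess and 0.040 with centring.

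When 1 array was left out, E2A-KO minus WT ran from -4.31 to 0.32 for Vpreb1, -0.048 to 0.36 for Vpreb3, -0.45 to 0.29 for Igll1, -0.33 to 0.061 for Cd79a and -0.68 to 0.27 for Cd79b. HEB-KO minus WT ran from -2.82 to 1.81 for Vpreb1, -0.70 to 0.044 for Igll1, -0.20 to 0.20 for Cd79a, -0.069 to 0.89 for Cd79b, -1.48 to 0.38 for Blk, -0.21 to 0.062 for Cd72, -2.28 to 0.27 for Ebf1 and -0.11 to 0.32 for Ighm at 1427329_a_at. E2A-KO minus HEB-KO ran from -0.15 to 0.013 for Vpreb3 and -0.030 to 0.53 for Igll1. In E2A-KO minus WT, Blnk, Blk, Cd72 and Bank1 stayed negative in every alternative run. The causes were not tested.

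The labels give no pairing by replicate number and no batch. The deviations of same-numbered arrays from their group means correlated at -0.28 (HEB-KO 1 with WT 1), -0.15 (E2A-KO 1 with WT 1), -0.09 (E2A-KO 2 with WT 2), 0.15 (E2A-KO 1 with HEB-KO 1) and -0.01 (E2A-KO 2 with HEB-KO 2). HEB-KO 1 with WT 2 gave 0.28, the mirror image of the first value, because 2 arrays of a group deviate by equal and opposite amounts. These correlations cannot decide whether arrays were handled together, which was not tested. With the replicate block, 1 of the 10 genes was called in E2A-KO minus WT, Blnk (limma adjusted p = 0.0487) in place of Cd72 (-1.74, adjusted p = 0.0874), and 0 in HEB-KO minus WT. A crossed replicate block on the WT and HEB-KO arrays called 0 of the 10 and 0 of all genes. With 2 arrays in WT and in HEB-KO, and with Cd79a and most Ighm probe sets near the array floor, small differences were not detectable. In HEB-KO minus WT even the 4.03-fold lower Tcf12 was not called.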
